A study of Mus musculus with 3 samples.

Results

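Sphingosine 1-phosphate (S1P) is the lipid that draws mature thymocytes out of the thymus, and the genes described here make it, carry it out of cells, remove it or sense it. There were 9 of these genes among the 32293 features counted, chosen by their role in the pathway, with earlier results of these data known. Sphk1 and Sphk2 encode the kinases that phosphorylate sphingosine, and Spns2 encodes the transporter that releases S1P. Sgpl1 encodes the lyase that degrades S1P for good, while Plpp3 and Plpp1 encode surface phosphatases that dephosphorylate S1P and other lipid phosphates. S1pr1, S1pr2 and S1pr3 encode G protein-coupled receptors for S1P.

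S1P is high in blood and lymph and kept low within tissue, so that a cell carrying S1pr1 moves up the gradient into a vessel. In the thymus this exit lies at the vessels of the corticomedullary junction, where perivascular cells and endothelium are known sources of S1P and the lyase keeps the parenchyma low. Mature thymocytes are the cells that respond, and as CD45+ cells they were depleted from the sorted stroma.

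Single-cell RNA sequencing was available for CD45− stromal cells from the thymus of untreated C57BL/6 mice aged 20 months. The 3 libraries were a Foxn1 lineage trace from females (Foxn1Lin female), the same trace from males (Foxn1Lin male) and a wild type from males, with 1 library per group. In the trace, a Cre under the control of Foxn1, the gene that directs the epithelial fate in the thymus, switches on tdTomato in thymic epithelial cells (TECs) and their descendants. Thymi of several mice were pooled for a preparation, and the shared protocol speaks of female mice for all 3 libraries. With 1 library per group, no difference between the groups could be tested, and sex, genotype and library cannot be told apart.

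Each barcode was assigned by the unique molecular identifiers (UMIs) of a few marker genes. TECs had at least 2 UMIs of Epcam, endothelial cells (ECs) at least 2 of Pecam1, fibroblasts (FBs) at least 2 of Pdgfra, mesothelial cells at least 2 of Upk3b, and mural cells (vascular smooth muscle cells and pericytes) at least 5 of Rgs5 and Acta2 together. Barcodes that met the rule of more than 1 class were dropped. In the order Foxn1Lin female, Foxn1Lin male and wild type, there were 464, 426 and 867 TECs, 1879, 818 and 857 ECs, 1852, 864 and 1707 FBs, and 426, 449 and 352 mural cells. Mesothelial cells numbered 338 and 36 in Foxn1Lin female and the wild type and 0 in Foxn1Lin male. All values below follow this order of libraries unless stated otherwise.

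The libraries held 3583 to 8616 called barcodes and 33386621 to 61258534 UMIs in them. Every class carried its own markers: the 6 EC markers summed to between 5909 and 6557 CPM (UMIs of a gene per 1000000 UMIs) in ECs, and the 8 mural markers to between 15360 and 16778 CPM in mural cells. The reporter transcript stood at 866 and 1372 CPM in TECs of the traced libraries and at 0 UMIs in each class of the wild type. In the traced libraries it was also found at 86.7 and 171 CPM in mural cells, 60.9 and 50.7 CPM in ECs, and 29.9 and 52.3 CPM in FBs. The source of these UMIs was not tested. The cell type field of the wild-type labels reads CD45-PECAM1+, although its title reads CD45- and its TECs, FBs and mural cells were as above. Some hematopoietic material remained: barcodes outside the 5 classes with at least 2 UMIs of Ptprc, which encodes CD45, numbered 117, 28 and 40, and the 6 hematopoietic markers summed to 649, 390 and 372 CPM in TECs. UMIs outside called barcodes made up 26.5%, 12.9% and 9.46% of all UMIs, and between 3 and 14 barcodes were shared by any 2 libraries. Markers of other classes were present at levels that differed by library. The 6 FB markers summed to 640 CPM in ECs of Foxn1Lin female, against 64.7 and 95.9 CPM in the other two libraries, and to 698, 1038 and 751 CPM in mural cells. Likewise the EC markers summed to 284 CPM in mural cells of Foxn1Lin female, against 51.4 and 38.6 CPM.

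Levels are given as CPM, the UMIs of a gene per 1000000 UMIs summed over the barcodes of a class in a library. Their 95% intervals are exact Poisson intervals, and these, like the exact Clopper-Pearson intervals of shares, cover counting error only. The limit given for a count of 0 is the CPM of 3 UMIs, not the end of such an interval. Classes were compared with the libraries as blocks, in edgeR's quasi-likelihood test on the summed counts, and a gene was called at a Benjamini-Hochberg adjusted p under 0.05 over all genes tested. Fold changes from this test are log2 values ± SE.

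S1pr1, the receptor that thymocytes use to leave and that also stabilizes the junctions of endothelium, was an EC transcript in this stroma. It lies on the minus strand of chromosome 3 (chr3:115710433-115715072, GRCm38). Its level in ECs was 435 CPM (421.8 to 448.7), 432 CPM (417.5 to 447.2) and 423 CPM (408.8 to 438.5). The 3 libraries thus lay within counting error of each other. In FBs it stood at 8.18, 12.2 and 12.6 CPM, in TECs at 7.22, 5.13 and 6.15 CPM, and in mural cells at 17.7, 7.65 and 4.15 CPM. These levels were all below the 103, 107 and 60.0 CPM of the UMIs outside called barcodes. A UMI of S1pr1 was found in 71.1%, 83.3% and 83.1% of ECs, against 8.41%, 5.63% and 6.00% of TECs, at median depths of 3856 to 7380 UMIs in ECs and 10965 to 16229 in TECs. Barcodes with at least 2000 UMIs were also thinned to 2000 UMIs, and shallower ones were left out (297, 25 and 41 ECs and 13, 17 and 22 TECs). The shares were then 56.1%, 52.6% and 52.7% of the ECs kept and 2.22%, 1.22% and 0.83% of the TECs kept. All thinned shares below follow this rule. ECs exceeded FBs by 5.32 ± 0.38 (edgeR adjusted p = 3e-06), mural cells by 5.60 ± 0.41 (adjusted p = 4.3e-06) and TECs by 6.49 ± 0.41 (adjusted p = 7.2e-07), in 3 of 3 libraries each. ECs held 95.0%, 95.4% and 91.0% of all S1pr1 UMIs of the 5 classes.

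S1pr3, a receptor known in vascular smooth muscle, was highest in mural cells and nearly missing from ECs. It lies on chromosome 13 (chr13:51408639-51422797, plus strand). Mural cells had 312, 255 and 254 CPM, FBs 116, 127 and 190 CPM, and TECs 45.2, 27.0 and 46.0 CPM. ECs had 10.5, 1.71 and 3.62 CPM. Among these 4 classes the order mural, FB, TEC, EC was the same in the 3 libraries, although mural cells and FBs, neighbors in it, did not differ past the threshold (0.90 ± 0.36, edgeR adjusted p = 0.086). ECs differed from mural cells by -5.75 ± 0.45 (adjusted p = 5.6e-06) and from FBs by -4.85 ± 0.44 (adjusted p = 9.9e-06). The highest EC level, that of Foxn1Lin female, came with the highest level of FB markers in ECs given above, whose part in it was not tested. After thinning, 42.3%, 34.9% and 34.4% of mural cells had a UMI of S1pr3, against 2.02%, 0.25% and 0.61% of ECs.

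S1pr2, a receptor that restrains migration, was a low FB transcript. It lies on chromosome 9 (chr9:20962361-20976781, minus strand). FBs had 39.4, 33.5 and 43.5 CPM and TECs 9.83, 10.9 and 13.1 CPM. Mural cells had 5.19, 4.37 and 7.06 CPM, and ECs 6.52, 2.76 and 3.21 CPM. FBs exceeded TECs by 2.10 ± 0.24 (edgeR adjusted p = 3.4e-05). Mural cells differed from FBs by -2.82 ± 0.29 (adjusted p = 4.6e-05) and ECs from FBs by -3.18 ± 0.26 (adjusted p = 5.9e-06), but ECs and mural cells did not differ past the threshold (-0.36 ± 0.32, adjusted p = 0.41). The receptors thus had their highest levels in 3 different classes.

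**Figure D1:**
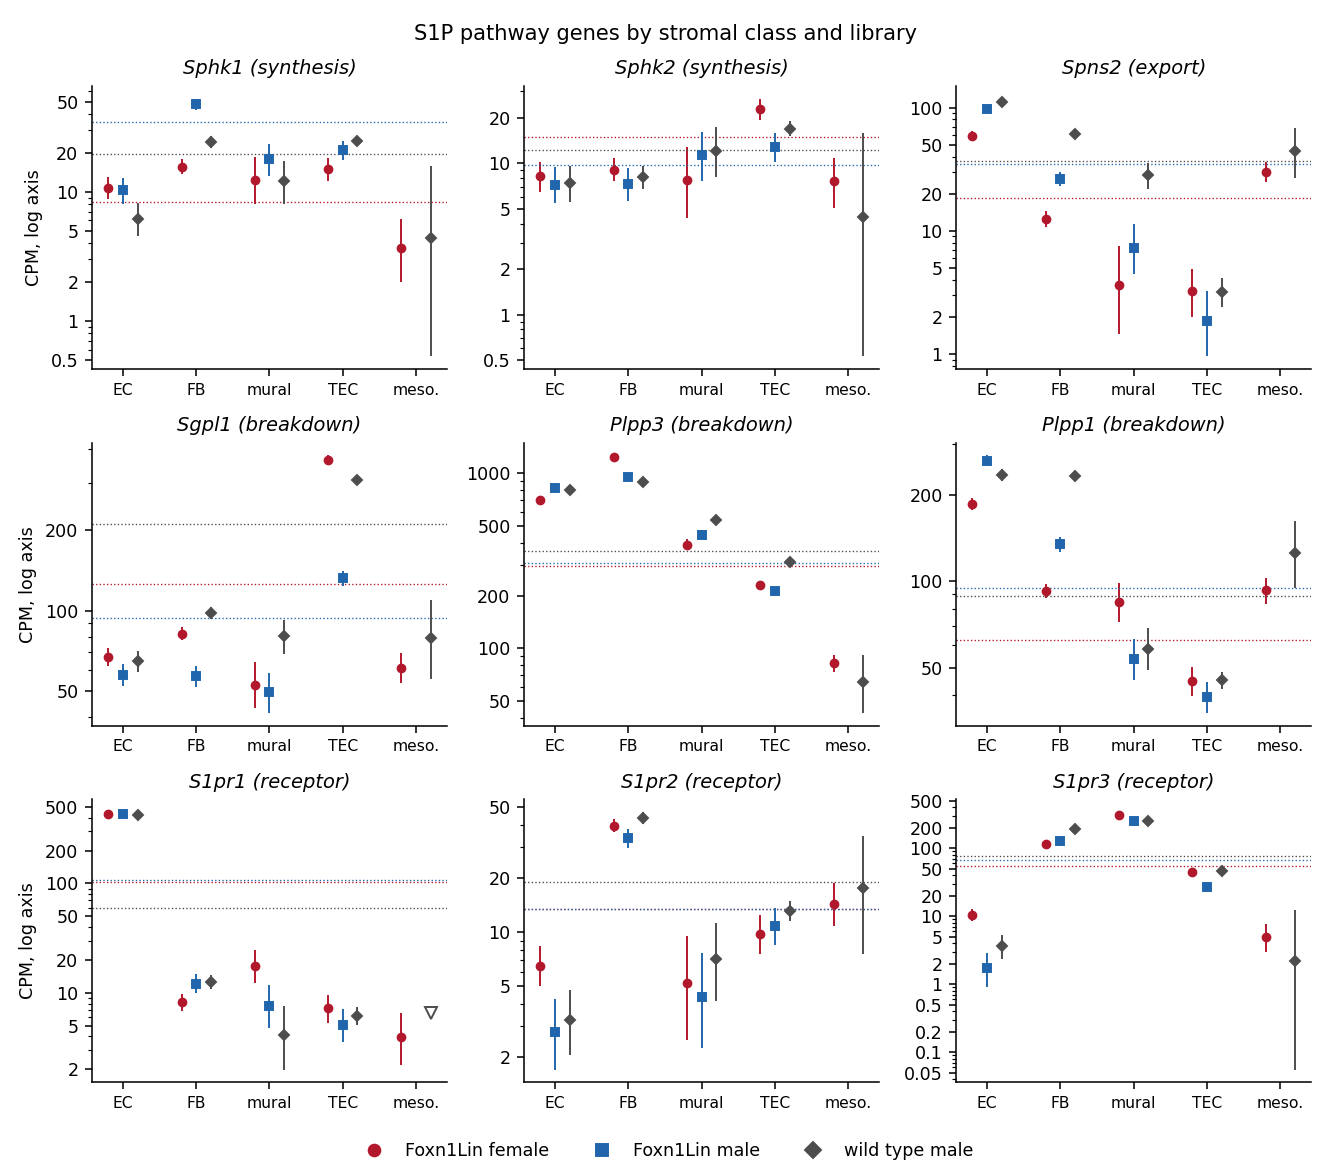
CPM of each of the 9 genes (log axis) in ECs, FBs, mural cells, TECs and mesothelial cells (meso.), with a point per library. Bars are exact 95% Poisson intervals and dotted lines the level outside called barcodes. An open triangle marks a count of 0, drawn at the CPM of 3 UMIs. S1pr1 lies at 423 to 435 CPM in ECs and at most at 17.7 CPM in the other classes, whereas S1pr3 is highest in mural cells and S1pr2 in FBs.

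The promoters of the FB receptor, the mural receptor and the EC transporter are printed below to show the sequence just upstream of genes with different classes. RefSeq promoter sequences (GRCm38.p6) were found for 7 of the 9 genes, and Plpp1 and S1pr1 were the others. Shown are the 250 bases before the start on the strand of the gene, chr9:20976794-20977043 (minus) for S1pr2, chr13:51408368-51408617 (plus) for S1pr3 and chr11:72475028-72475277 (minus) for Spns2. The RefSeq start of Spns2 lies within the longer gene model of GENCODE given below. Capitals mark the letters GGAA or TTCC, the core that ETS factors bind, read on both strands.
S1pr2: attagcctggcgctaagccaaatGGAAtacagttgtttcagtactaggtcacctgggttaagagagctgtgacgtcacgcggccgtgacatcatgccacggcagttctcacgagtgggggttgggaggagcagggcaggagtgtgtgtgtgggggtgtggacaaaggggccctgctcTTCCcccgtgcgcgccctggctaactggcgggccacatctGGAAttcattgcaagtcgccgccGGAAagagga
S1pr3: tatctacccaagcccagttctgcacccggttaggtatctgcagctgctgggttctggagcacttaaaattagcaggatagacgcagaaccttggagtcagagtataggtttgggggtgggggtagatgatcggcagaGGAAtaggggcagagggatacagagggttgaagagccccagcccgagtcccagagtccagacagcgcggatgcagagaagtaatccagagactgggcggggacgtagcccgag
Spns2: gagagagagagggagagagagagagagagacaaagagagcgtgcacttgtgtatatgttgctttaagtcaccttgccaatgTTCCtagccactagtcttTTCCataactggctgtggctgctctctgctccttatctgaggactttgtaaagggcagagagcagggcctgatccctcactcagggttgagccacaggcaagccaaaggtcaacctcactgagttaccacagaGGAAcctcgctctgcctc

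The ETS core was present 4 times in S1pr2, 1 time in S1pr3 and 3 times in Spns2. It is a short motif, found in 93.4% of 32851 promoter windows of the same length with a median of 3 matches. The letters CACCC or GGGTG, which KLF factors bind, were present 1 time in S1pr2, 2 times in S1pr3 and 0 times in Spns2, against 52.0% of all windows. The E-box CANNTG was present 4 times in S1pr2 and 1 time each in S1pr3 and Spns2, against 66.2% of all windows. The motifs were searched apart and may overlap, and a match is a description of letters only.

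Spns2, the S1P transporter, was highest in ECs. The gene lies on chromosome 11 (chr11:72451638-72489904, minus strand). ECs had 59.0 CPM (54.18 to 64.13), 97.0 CPM (90.13 to 104.3) and 110.1 CPM (102.7 to 117.9). FBs had 12.6, 26.5 and 61.3 CPM, mural cells 3.63, 7.29 and 28.2 CPM, and TECs 3.23, 1.87 and 3.19 CPM. Among these 4 classes the order EC, FB, mural, TEC was the same in the 3 libraries, while the fold of ECs over FBs was 4.69, 3.65 and 1.80. ECs exceeded FBs by 1.66 ± 0.40 (edgeR adjusted p = 0.0067), mural cells by 3.01 ± 0.47 (adjusted p = 0.00043) and TECs by 5.43 ± 0.51 (adjusted p = 7.8e-06). Without Foxn1Lin male, the difference between ECs and FBs was 1.44 (adjusted p = 0.091). With no library block, 1 gene was called as higher in ECs than in FBs, in place of both S1pr1 and Spns2. Mesothelial cells had 30.2 CPM in Foxn1Lin female and 44.0 CPM in the wild type, above FBs in the first and below them in the second, and did not differ from FBs past the threshold (0.35 ± 0.50, adjusted p = 0.7). A UMI of Spns2 was found in 22.1%, 45.0% and 50.3% of ECs, against 3.88%, 2.35% and 4.50% of TECs. Thinned to 2000 UMIs, the shares of ECs were 11.1%, 15.3% and 18.9%.

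Spns2 and S1pr1 were found together in 350 of 1879, 329 of 818 and 396 of 857 ECs. The product of the separate shares gives 296, 306 and 358 barcodes. Deep barcodes hold more UMIs of any gene, and the part of depth in the excess was not tested.

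The kinases that make S1P were low in every class. FBs held 48.6%, 61.2% and 41.1% of the Sphk1 UMIs of the 5 classes and TECs 21.3%, 20.0% and 50.3%, while TECs held 37.1%, 35.5% and 59.7% of those of Sphk2. These shares also depend on how many UMIs of a class were captured. Over all genes, FBs had 14303879, 8628126 and 15213042 UMIs and TECs 6508087, 6435908 and 18202650. Sphk1 (chr11:116530925-116536674, plus strand), the kinase of the cytoplasm and plasma membrane, had 15.7, 47.9 and 24.3 CPM in FBs, 15.1, 20.98 and 24.9 CPM in TECs, 12.5, 17.9 and 12.0 CPM in mural cells, and 10.8, 10.3 and 6.16 CPM in ECs. FBs were highest in both traced libraries and TECs in the wild type. The level in FBs was above that in ECs (EC against FB, -1.53 ± 0.31, edgeR adjusted p = 0.0023) and above that in mural cells (mural against FB, -0.99 ± 0.33, adjusted p = 0.043). The call against mural cells was lost without Foxn1Lin male (-0.74, adjusted p = 0.24), without the wild type (-1.04, adjusted p = 0.15), and with DESeq2 (-0.91, adjusted p = 0.054), strict gates, lowered gates or no library block. FBs and TECs did not differ past the threshold (0.74 ± 0.30, adjusted p = 0.054). Mural cells, which include the pericytes, were above ECs and below TECs in 3 of 3 libraries, but neither difference passed the threshold (-0.54 ± 0.34 for EC against mural, adjusted p = 0.25, and -0.25 ± 0.33 for mural against TEC, adjusted p = 0.56).

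Sphk2 (chr7:45709467-45718002, minus strand), the kinase found mainly in the nucleus and mitochondria, had 22.7, 12.7 and 17.0 CPM in TECs. ECs, FBs and mural cells lay between 7.23 and 12.0 CPM. TECs were the highest class in 3 of 3 libraries and exceeded ECs (-0.81 ± 0.25 for EC against TEC, edgeR adjusted p = 0.016) and FBs (-0.75 ± 0.24 for FB against TEC, adjusted p = 0.02), but not mural cells past the threshold (-0.38 ± 0.26 for mural against TEC, adjusted p = 0.25). Sphk2 and Sgpl1 were the genes called as lower in FBs than in TECs. Without Foxn1Lin male, and likewise without the wild type, 1 call of that direction was left. Calls lower in ECs than in TECs also fell in number in these fits, as given below. At 2000 UMIs per barcode, Sphk1 or Sphk2 was found in at most 9.52% of the barcodes of any class. Of the 9 genes, Sgpl1 overlaps a gene on its own strand, Gm44308. On the opposite strand, Sphk2 overlaps Dbp and Rpl18, Sphk1 Gm29292, Spns2 Mybbp1a, Plpp1 Mtrex and S1pr3 Gm32834.

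Of the breakdown genes, the lyase Sgpl1 (chr10:61098642-61147703, minus strand) was highest in TECs. TECs had 364.5 CPM (349.9 to 379.4), 132 CPM (123.2 to 141.1) and 307 CPM (298.6 to 314.7). FBs had 82.1, 56.9 and 98.4 CPM, ECs 67.1, 57.7 and 64.9 CPM, and mural cells 53.0, 49.6 and 80.1 CPM. Even the lowest TEC level was above that of each other class in any library. The differences were -1.38 ± 0.24 for FB against TEC (edgeR adjusted p = 0.00055), -1.62 ± 0.24 for EC against TEC (adjusted p = 0.00019) and -1.75 ± 0.25 for mural against TEC (adjusted p = 0.00019). Among ECs, FBs and mural cells, no pair differed past the threshold (adjusted p = 0.46, 0.7 and 0.29). In TECs, the 10% of barcodes with the most Sgpl1 held 56.9%, 58.5% and 57.6% of its UMIs. Plpp3 in TECs was about as uneven, with 53.3%, 49.1% and 55.3%, while the deepest 10% of TECs held 29.1%, 28.1% and 29.7% of all UMIs.

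Plpp3 (chr4:105157347-105232764, plus strand), known to remove S1P and lysophosphatidic acid at the surface of endothelium and stroma, had 1243, 956 and 886 CPM in FBs, 703, 823 and 803 CPM in ECs, 391, 442.5 and 539 CPM in mural cells, and 228, 211 and 310 CPM in TECs. Mesothelial cells had the lowest levels, with 81.8 and 63.8 CPM. The order FB, EC, mural, TEC was the same in the 3 libraries, but FBs and ECs did not differ past the threshold (-0.36 ± 0.23 for EC against FB, edgeR adjusted p = 0.23). ECs exceeded mural cells by 0.82 ± 0.23 (adjusted p = 0.015) and mural cells exceeded TECs by 1.20 ± 0.23 (adjusted p = 0.0015).

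Plpp1 (chr13:112800792-112867894, plus strand), a related phosphatase, had 186, 263 and 235 CPM in ECs and 92.6, 134 and 232 CPM in FBs. ECs were above FBs by 2.00-fold and 1.95-fold in the traced libraries and by 1.01-fold in the wild type, and the test did not pass the threshold (0.66 ± 0.27, edgeR adjusted p = 0.071). Mural cells had 84.6, 53.6 and 58.1 CPM and TECs 44.7, 39.5 and 45.1 CPM. ECs exceeded mural cells by 1.86 ± 0.28 (adjusted p = 0.00037) and TECs by 2.77 ± 0.28 (adjusted p = 1.5e-05).

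**Figure D2:**
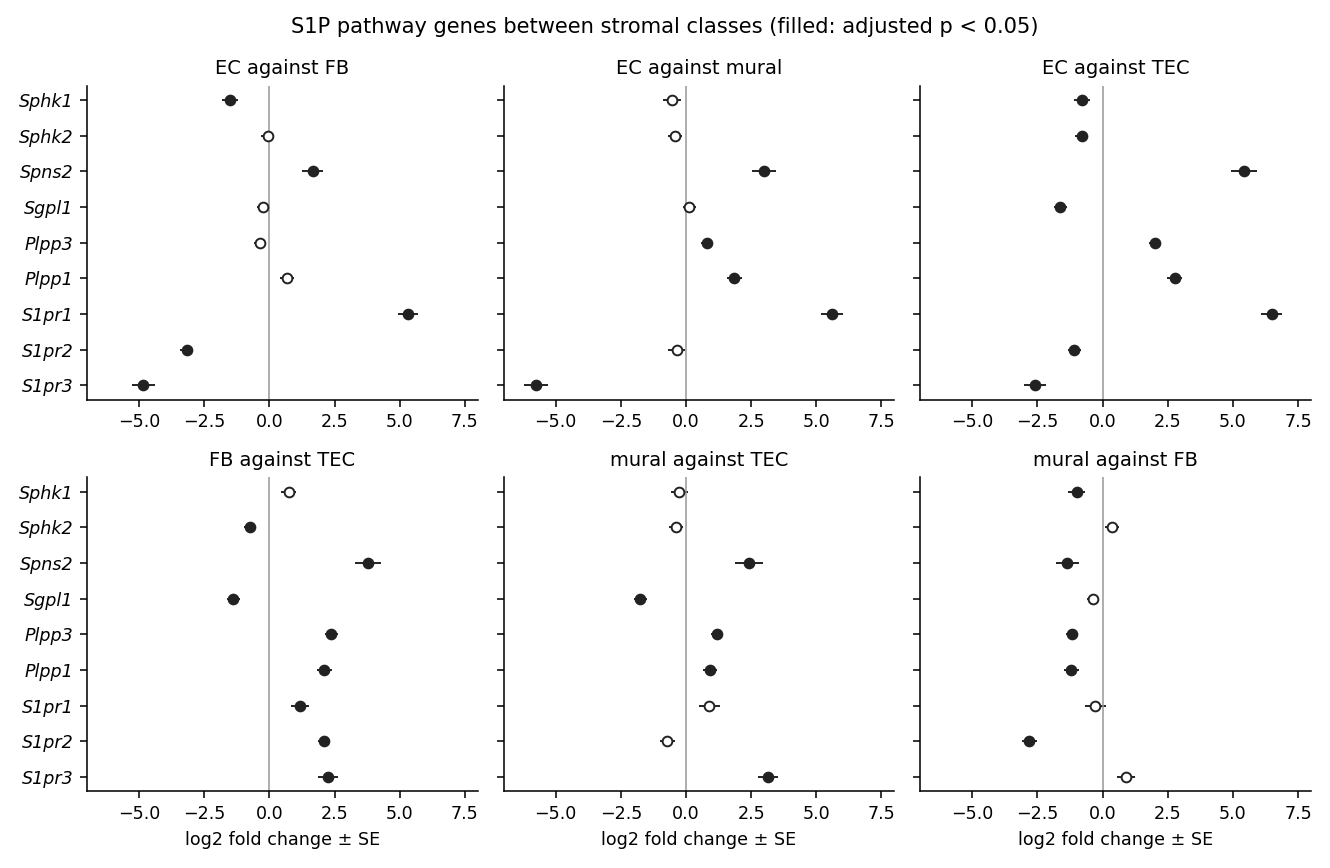
Log2 fold change ± SE of the 9 genes in 6 contrasts between stromal classes, from edgeR with the library as a block. Filled points passed an adjusted p of 0.05. S1pr1 and Spns2 lie to the right wherever ECs come first, and S1pr3 lies to the left there.

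By contrast, the counts of genes called were as follows. For EC against TEC, 9 of the 9 genes were called, 4 higher and 5 lower in ECs, with a median of -0.79 against -0.12 over all genes, and 56.3% of all 17595 genes tested were called. Sphk1 was the gene nearest the threshold there (edgeR adjusted p = 0.049), and it was not called without the wild type (-0.34) or without Foxn1Lin male (-0.86). Without the wild type, 6 were called, 4 higher and 2 lower, against 7172 of 18403 over all genes. Without Foxn1Lin male, 7 were called, 4 higher and 3 lower, against 7061 of 17124. Genes lower in ECs other than Sphk1 thus lost their calls as well. For FB against TEC, 8 were called, 6 higher and 2 lower in FBs, against 55.0% of all genes. For mural against TEC, 5 were called, 4 higher and 1 lower, against 48.7%, while plain library totals gave 3 higher and 3 lower, with Sphk2 (-0.70) and S1pr2 (-1.04) gained and Plpp1 (0.61) lost. Without the wild type, 3 of the 9 were called there, and Spns2 moved from 2.42 to 1.37. Contrasts against TECs depended on the scaling: with plain library totals in place of TMM, the median of all genes moved by -0.37 for EC, -0.33 for FB and -0.31 for mural cells against TEC, and S1pr1 was no longer called for FB against TEC (0.84, edgeR adjusted p = 0.065).

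For EC against FB, 5 of the 9 were called, S1pr1 and Spns2 higher and S1pr2, S1pr3 and Sphk1 lower in ECs, against 39.6% of all genes. For EC against mural, S1pr1, Spns2, Plpp1 and Plpp3 were higher and S1pr3 lower in ECs, against 37.2% of all genes. For mural against FB, 5 were called and all were lower in mural cells (Spns2, Plpp1, Plpp3, S1pr2 and Sphk1), against 28.4% of all genes. That count was 2 without Foxn1Lin male, against 2662 of 17124 over all genes, and 3 without the wild type, against 2342 of 18403. It was 7 without Foxn1Lin female, against 4421 of 18201, and there S1pr3 was called as higher in mural cells (0.78, edgeR adjusted p = 0.018). For mesothelial against FB, which rested on 2 libraries, 5 were called and all were lower in mesothelial cells (S1pr1, S1pr2, S1pr3, Sphk1 and Plpp3), against 21.5% of all genes. Mesothelial cells also carried FB markers, at 8788 and 9429 CPM in Foxn1Lin female and the wild type against 4469 and 4285 CPM of their own 5 markers, and TEC markers at 1168 and 519 CPM. The part of these in the contrast was not tested. With plain library totals, S1pr1 was not called (edgeR adjusted p = 0.056). Of the 5 calls, Plpp3 had the lowest adjusted p (-3.89 ± 0.31, adjusted p = 1.9e-05), whereas S1pr1 was at 0 UMIs in mesothelial cells of the wild type, which allows up to 6.60 CPM, and 2 of the 9 were called without the wild type. That fit left 1 mesothelial sum, which was assumed to vary like the other classes. These contrasts share classes, so their counts are not independent of each other.

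Within FBs, 6 of the 9 genes differed between a capsular and a medullary gate, named for marker genes and not for a measured position. Capsular FBs had at least 2 UMIs of Pi16 and Dpp4 together and medullary FBs at least 2 of Ptn and Postn, with barcodes meeting both left out. Spns2 was at 3.08, 0 and 4.00 CPM in capsular FBs and at 30.7, 31.1 and 72.3 CPM in medullary FBs. The count of 0 allows up to 4.35 CPM, still below the medullary FBs of each library. The fitted difference for capsular against medullary FBs was -3.72 ± 0.30 (edgeR adjusted p = 4.2e-06). Plpp1 followed, with 37.2, 31.9 and 47.2 CPM in capsular and 185, 151 and 262 CPM in medullary FBs (-2.34 ± 0.16, adjusted p = 1.1e-06). S1pr3 had 57.1, 49.3 and 68.8 CPM in capsular and 214, 140 and 205 CPM in medullary FBs (-1.68 ± 0.16, adjusted p = 1.4e-05). Plpp3 went the other way, with 1688, 2629 and 1870 CPM in capsular and 612, 708.5 and 764 CPM in medullary FBs (1.55 ± 0.17, adjusted p = 4.1e-05). Sphk1 (-1.10 ± 0.19) and the low S1pr1 (-1.51 ± 0.30) were also lower in capsular FBs, so that 6 of the 9 genes were called, against 23.6% of 12342 genes. S1pr2, the FB receptor, showed no such split, with 40.8, 30.5 and 41.6 CPM in capsular and 42.5, 34.3 and 44.8 CPM in medullary FBs (-0.09 ± 0.16, adjusted p = 0.74). The 6 calls held without any 1 library.

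Within ECs, the receptor and the transporter lay on opposite sides. Venous ECs had at least 3 UMIs of Vwf, Selp and Ackr1 together and arterial ECs at least 3 of Gja4, Gja5, Hey1 and Sema3g. Spns2 had 95.0, 131 and 146 CPM in venous and 50.3, 74.7 and 81.0 CPM in arterial ECs (1.04 ± 0.15, edgeR adjusted p = 0.00028). S1pr1 had 344, 303 and 346 CPM in venous and 567.9, 640.3 and 610.5 CPM in arterial ECs (-0.70 ± 0.14, adjusted p = 0.0028). Neither gene's groups overlapped, but the share of all genes without overlap was not counted, so this is a description only. Plpp3 was slightly higher in venous ECs (0.46 ± 0.14, adjusted p = 0.027), but with plain library totals it was not called (0.28 ± 0.12, adjusted p = 0.11). That scaling moved the median of all genes by -0.18 and left 1 gene higher and 2 lower. Plpp1 was lower in venous ECs (-0.79 ± 0.24, adjusted p = 0.026), but not in each library: it had 130, 95.8 and 109 CPM in venous and 131, 306 and 230 CPM in arterial ECs, and both gates of Foxn1Lin female were level. Of the 5 genes with enough counts to test, these 4 were called, against 28.5% of 8762 genes. Without Foxn1Lin male, Spns2 alone was called (1.08, adjusted p = 0.00034), and S1pr1 was at -0.58 (adjusted p = 0.068). Without the wild type, Spns2, S1pr1 and Sphk1 were called, and Plpp1 and Plpp3 were not. Sphk1 was low in these gates, with 22, 49 and 25 UMIs in venous and 8, 4 and 0 UMIs in arterial ECs.

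**Figure D3:**
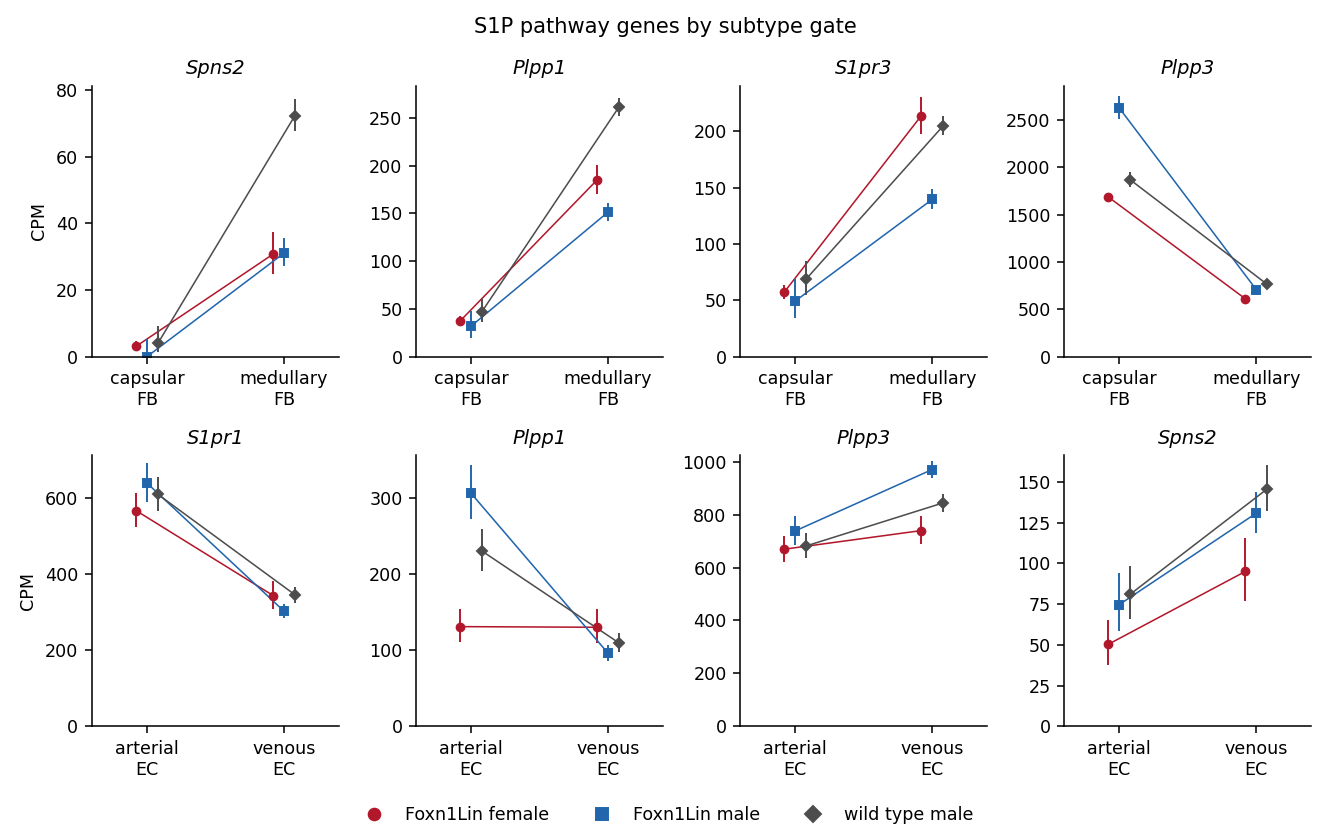
CPM (linear axis from 0) of Spns2, Plpp1, S1pr3 and Plpp3 in capsular and medullary FBs (upper row) and of S1pr1, Plpp1, Plpp3 and Spns2 in arterial and venous ECs (lower row). Points are libraries, bars exact 95% Poisson intervals, and lines join both gates of a library; Spns2 rises from capsular to medullary FBs and from arterial to venous ECs in each.

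Within mural cells, barcodes with at least 2 UMIs of Myh11, a smooth muscle myosin, were compared with those that had at least 2 of Rgs5 and 0 of Myh11. The second gate held 92, 50 and 27 barcodes. S1pr3 had 359, 283 and 265 CPM in the Myh11 gate and 223, 120 and 229 CPM in the Rgs5 gate (0.88 ± 0.24, edgeR adjusted p = 0.032). Plpp3 had 493, 477 and 598 CPM and 210, 192 and 203 CPM (1.53 ± 0.22, adjusted p = 0.00082). These 2 of the 5 genes tested were called, against 14.4% of 8666 genes. S1pr3 was not called without Foxn1Lin female (0.87) or without Foxn1Lin male (0.66). With plain library totals, which moved the median of all genes by -0.19, 1 gene was higher and 1 lower: S1pr3 was not called (0.69, adjusted p = 0.079 in edgeR) and Sgpl1 was (-0.92, adjusted p = 0.037). Sphk1 was too low to separate the gates (0.59 ± 0.62, adjusted p = 0.61), with 1, 4 and 3 UMIs in the Rgs5 gate.

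Within TECs, barcodes with at least 3 UMIs of Prss16, Psmb11 and Ly75 together, which mark the cortex, were compared with those that had none. The gates also differed in depth, with medians of 17778, 18675 and 22786 UMIs in cortical and 8226, 7635 and 11178 in the other TECs. The part of depth in this contrast was not tested. In edgeR, 0 of the 8 genes tested were called, against 1.24% of 13236 genes. DESeq2 called 1 of the 8, against 756 of 13236 over all genes. Without the filter on low counts, edgeR called 3 of 9, against 1388 of 25179 over all genes. At an unadjusted p under 0.05, 2770 of all genes passed in edgeR. Plpp3 (1.07 ± 0.23, adjusted p = 0.083), S1pr3 (0.97 ± 0.29, adjusted p = 0.15) and Sgpl1 (0.57 ± 0.15, adjusted p = 0.11) had the highest values, each higher in cortical TECs in 3 of 3 libraries. Sgpl1 had 470.0, 133 and 373 CPM in cortical and 259, 108 and 252.5 CPM in the other TECs.

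Between libraries, S1pr1 in ECs was level: the log2 ratio was 0.01 (-0.06 to 0.08) for Foxn1Lin female over Foxn1Lin male and 0.03 (-0.04 to 0.10) for Foxn1Lin male over the wild type. Ratios have exact conditional intervals for counting error. For Foxn1Lin female against Foxn1Lin male, 7 of 36 pairs of gene and class were at least 2-fold apart, against 17.3% of 55647 pairs over all genes. For Foxn1Lin male against the wild type, 4 of 36 were, against 12.1% of 55554 pairs. The pairs had to hold at least 20 UMIs over both libraries. The median size of the log2 ratio was 0.50 and 0.33 over the pairs of the 9 genes, against 0.39 and 0.37 over all pairs, so that both shares lay near the background.

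Sgpl1 in TECs was lowest in Foxn1Lin male. The log2 ratio was 1.47 (1.35 to 1.58) for Foxn1Lin female over Foxn1Lin male and -1.22 (-1.32 to -1.11) for Foxn1Lin male over the wild type. The same held within cortical TECs (133 CPM against 470.0 and 373 CPM) and within the other TECs (108 CPM against 259 and 252.5 CPM). In FBs, Sgpl1 was again lowest in Foxn1Lin male, at 56.9 against 82.1 and 98.4 CPM. It was lowest there in ECs and mural cells as well, with smaller ratios than in TECs. In the same order, these were 0.22 (0.04 to 0.40) and -0.17 (-0.36 to 0.02) in ECs. In mural cells they were 0.10 (-0.29 to 0.48) and -0.69 (-1.02 to -0.37).

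Spns2 in FBs had a log2 ratio of -1.08 (-1.37 to -0.79) for Foxn1Lin female over Foxn1Lin male, and Foxn1Lin male differed from the wild type by -1.21 (-1.42 to -0.997). The makeup of the FBs also differed between libraries. Capsular and medullary FBs numbered 704 and 480 in Foxn1Lin female, 64 and 692 in Foxn1Lin male, and 140 and 1292 in the wild type. Capsular FBs were the larger group in Foxn1Lin female only, while both males had mostly medullary FBs. Within medullary FBs, the ratio of Foxn1Lin female to Foxn1Lin male was -0.01 (-0.38 to 0.34), and that of Foxn1Lin male to the wild type was -1.22 (-1.44 to -1.003). Spns2 in mural cells had the same direction, with 7, 20 and 68 UMIs (-1.95, -2.75 to -1.22 for Foxn1Lin male over the wild type). In ECs, Spns2 was lower in Foxn1Lin female than in Foxn1Lin male (-0.72, -0.88 to -0.56) and close between both males (-0.18, -0.33 to -0.04). Venous ECs numbered 116 of 1879, 276 of 818 and 270 of 857 ECs, and arterial ECs 154, 90 and 123. The ratio of Foxn1Lin female to Foxn1Lin male was -0.46 (-0.79 to -0.14) within venous and -0.57 (-1.10 to -0.05) within arterial ECs.

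Sphk1 in FBs was highest in Foxn1Lin male, with a ratio of -1.61 (-1.85 to -1.37) for Foxn1Lin female over it and 0.98 (0.77 to 1.18) for it over the wild type. Within medullary FBs these were -1.14 (-1.53 to -0.78) and 0.98 (0.75 to 1.20). The other pairs past 2-fold were S1pr3 and S1pr2 in ECs and S1pr1 and Spns2 in mural cells for Foxn1Lin female over Foxn1Lin male, and S1pr3 in ECs for Foxn1Lin male over the wild type. Of these, S1pr3 (98 against 13 UMIs) and S1pr2 (61 against 21) in ECs moved with the FB markers in ECs, and S1pr1 in mural cells (34 against 21) with the EC markers in mural cells. The part of those traces in these ratios was not tested.

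**Figure D4:**
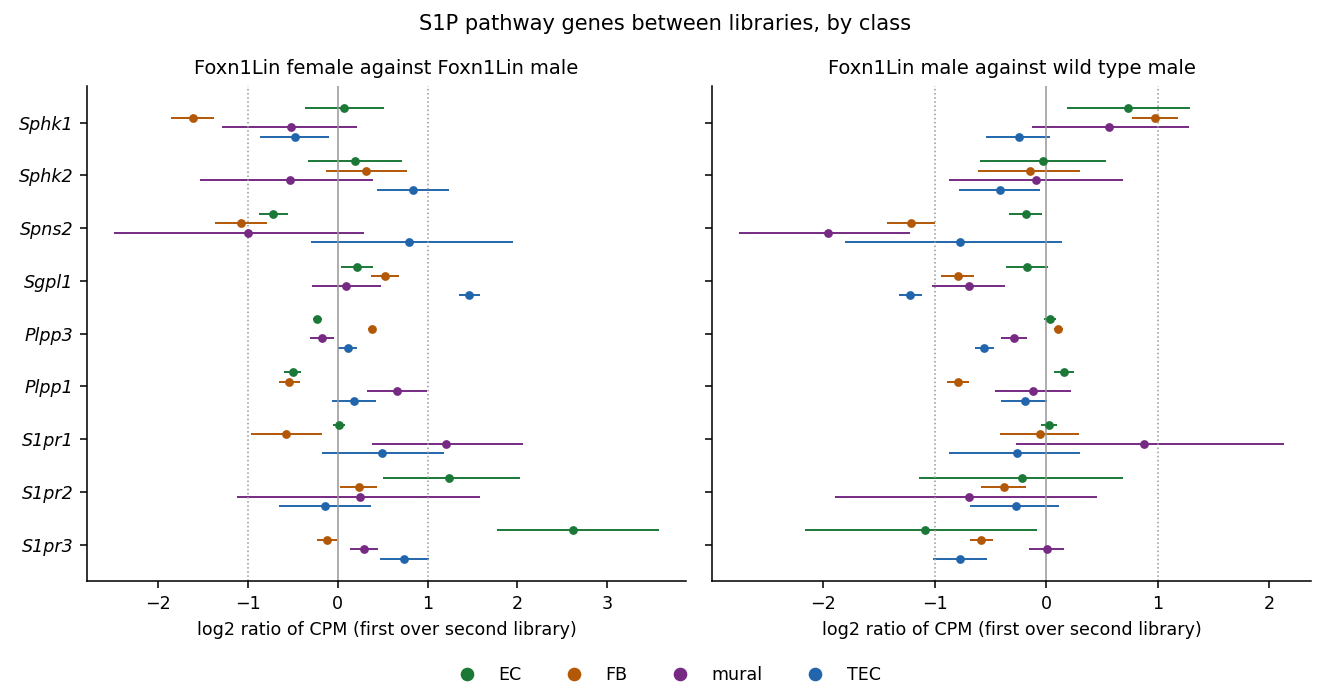
Log2 ratio of CPM between 2 libraries for the 9 genes in ECs, FBs, mural cells and TECs, with exact 95% conditional intervals for counting error and dotted lines at 2-fold. Sgpl1 in TECs lies right of 1 on the left and left of -1 on the right, and S1pr1 in ECs lies at 0 in both.

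A further 30 genes of the pathway were taken as a list. It held the ceramide synthesis genes, ceramidases that free sphingosine, S1P phosphatases, further transporters and carriers, S1pr4 and S1pr5, and Klf2 and Cd69, which act on S1pr1 in T cells. In each contrast of classes 26 were tested. For EC against TEC, 20 were called, 11 higher and 9 lower in ECs, against 56.3% of all genes. For EC against FB, 11 were called, 7 higher and 4 lower, against 39.6%, and for EC against mural 10, 7 higher and 3 lower, against 37.2%. For mural against FB, 4 were called, 1 higher and 3 lower, against 28.4%. For FB against TEC, 18 were called, 10 higher and 8 lower in FBs, against 55.0%. For mural against TEC, 17 were called, 7 higher and 10 lower, against 48.7%, and for mesothelial against FB 3 were called, all higher, against 21.5%. The list was chosen with earlier results of these data known.

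Of the 4 ceramidases tested, 3 were higher and 1 lower in ECs than in FBs, and of the 13 ceramide synthesis genes 2 were higher and 1 lower, with a median of 0.02. The ones described next were chosen after their values were seen. Acer2, an alkaline ceramidase, had 98.4, 173 and 250 CPM in ECs and between 1.84 and 33.2 CPM in the other classes, and exceeded FBs by 5.51 ± 0.58 (edgeR adjusted p = 2.7e-05). Asah2, a ceramidase of the cell surface, had 56.6, 64.7 and 121 CPM in ECs and exceeded TECs by 1.92 ± 0.20, FBs by 1.51 ± 0.20 and mural cells by 2.29 ± 0.22. Sptlc2, a subunit of the first enzyme of sphingolipid synthesis, had 227, 294 and 370 CPM in ECs and exceeded FBs by 1.08 ± 0.15. The lysosomal ceramidase Asah1 (-0.72 ± 0.17, adjusted p = 0.0049) and the ceramide synthase Cers6 (-1.42 ± 0.31, adjusted p = 0.0034) were lower in ECs than in FBs in edgeR. Sgpp1, a phosphatase that returns S1P to sphingosine within the cell, was highest in TECs with 116, 101 and 140 CPM, against 15.6, 6.31 and 14.5 CPM in ECs (-2.93 ± 0.31 for EC against TEC).

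S1pr4, a receptor known from hematopoietic cells, had 14.9, 20.6 and 12.6 CPM in ECs and at most 1.38 CPM in any other class. Venous ECs had less of it than arterial ECs (-1.08 ± 0.27, edgeR adjusted p = 0.01), as with S1pr1. Klf2, which raises S1pr1 in T cells, was also lower in venous ECs (-1.72 ± 0.14, adjusted p = 2.7e-06). Across classes, Klf2 had 743, 1326 and 1211 CPM in mural cells and 808, 954 and 546 CPM in ECs, which did not differ past the threshold (-0.44 ± 0.31 for EC against mural, adjusted p = 0.3). S1pr5, Apom, Cers1 and Acer1 had too few counts to be tested.

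The genes whose levels were most like each member were sought over 14 sums of class and library and 14486 genes, as Pearson's r of log2(CPM + 1). The sums share libraries and depth, so r is a description. Sox7 (r = 0.99), Notch4 (0.98) and Uaca (0.97) were nearest to S1pr1, and 1500009L16Rik (0.98), Egflam (0.97) and Wasf3 (0.97) to S1pr3. Gxylt2, Lamb1 and Ptges (each 0.94) were nearest to S1pr2. Spns2 was nearest to Lipa (0.93), Ppfibp1 (0.92) and Cdr2 (0.91), and Plpp1 to Clec14a (0.95), Ssh2 (0.94) and Lipa (0.93). Sgpl1 was nearest to Erv3 (0.97), Ovol3 (0.96) and Tmem54 (0.95), and Plpp3 to Pros1 and Atp8b1 (each 0.96) and Agmo (0.95). Cisd2 (0.93), Osr2 (0.91) and Art4 (0.89) were nearest to Sphk1, and Srd5a1, Ndrg3 (each 0.95) and Gin1 (0.94) to Sphk2.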

How the data were processed

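CD45− thymic stroma was profiled by droplet single-cell RNA sequencing in 3 libraries, each the only one of its group. The authors deposited filtered and raw matrices of UMI counts per gene and barcode. The submitters' processing notes and file headers name Cell Ranger (7.01 and 7.0.1) and the builds GRCm38.p5 and mm10, and the counts as deposited were not normalized. Barcodes with at most 1000 genes and at least 20% mitochondrial UMIs were dropped. Doublets were treated by dropping barcodes of more than 1 class, with stricter gates and removal of the deepest 3.9% of barcodes as alternatives. No doublet caller was run.

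Counts were summed per library and class (at least 20 barcodes) and tested with edgeR 4.0.16 in R 4.3.3 (filterByExpr, TMM, quasi-likelihood test, library as block, Benjamini-Hochberg adjustment over all genes). Libraries are the replicates of each class, so p-values measure only the spread among these 3 libraries. Single-gene intervals were exact. DESeq2 1.42.0 was an alternative. The genes named were the 9 members, a list of 30 further pathway genes, and the 3 genes most like each member with at least 200 UMIs. The members and lists were chosen with earlier results of these data known. Positions follow GENCODE M21.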

Additional observations from a re-analysis of the deposited data

How the results depend on the processing

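No direction of a called value reversed under any alternative tried. The count of the 9 genes called moved by more than 1.5 times in these cases: for mural against FB, 3 were called without the library block; for the mural gates, 1 was called with DESeq2, 1 without the block, 1 with the class gate minimum lowered by 1 UMI and 1 with strict class gates (class gates within the subtype gates were varied after seeing the data); for the EC gates, 1 without the block; for the TEC gates, 1 without the deepest 3.9% of barcodes, 1 with DESeq2 and 3 without the filter on low counts. Leaving out each library in turn gave 6 to 9 genes for EC against TEC, 4 to 5 for EC against FB, 4 to 6 for EC against mural, 2 to 7 for mural against FB, 3 to 6 for mural against TEC, 6 to 9 for FB against TEC and 2 to 4 for mesothelial against FB, where leaving out either library with mesothelial cells left 1 sum, assumed to vary like the other classes. It gave 1 to 2 for the mural gates, 1 to 5 for the EC gates, 6 for the FB gates and 0 to 1 for the TEC gates. Between libraries, 12 and 13 pairs were at least 1.5-fold apart in place of 7 and 4 at 2-fold, and with the gate minimum lowered by 1 UMI the first count was 4. The cause of these moves was not tested, other than the fewer samples of a left-out library and the lower fold. Of the fold changes of single genes, 1112 kept their direction and side of the threshold, 61 lost the call and 21 gained it. No paired analysis was possible because replicate numbers name only the sole library of a group, and the library is already a block in each comparison of classes. Low counts limit the kinases, Spns2 in mural cells (7 to 68 UMIs) and TECs (12 to 58 UMIs), and the small gates.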
